A study of Citrus sinensis with 48 samples.

Results

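The genes described here are the nitrate and peptide transporters of citrus leaves, taken as every gene of the deposited expression table whose product name contains NRT1/PTR, high-affinity nitrate transporter or peptide transporter. The rule found 81 of the 30136 genes in the table. By the names in the table, 65 of them are NRT1/PTR family proteins (NPF) of subfamilies NPF1 to NPF8, 15 are oligopeptide transporters (OPT, a separate family that the words peptide transporter also catch), and 1 is the high-affinity nitrate transporter NRT3.1. The NRT2 proteins are spelled without the hyphen in the table, so they are not among the 81 and are given later as related genes.

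RNA was sequenced from leaves of 2 citrus genotypes. Carrizo citrange (Car) is a hybrid of Poncirus trifoliata and Citrus sinensis, and Cleopatra mandarin (Cleo) is Citrus reshni. Each was sampled untreated (CT) and under 7 stresses, namely high light (HL), heat (HS), lack of water (water stress, WS), the pairs HL+HS, WS+HL and WS+HS, and all of them together (WS+HL+HS). With 3 biological replicates per group this gives 16 groups and 48 libraries. The sources used here give neither the plants' age nor the length, light level or temperature of a stress.

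NPF proteins are proton-coupled carriers of the plasma membrane or the vacuole membrane. Plants have many of them, and those studied in Arabidopsis carry nitrate, di- and tripeptides, or hormones and defence compounds such as abscisic acid, gibberellins and glucosinolates. In leaves they are known for unloading nitrate from the xylem, storing it in petiole cells and reloading it into the phloem for younger leaves. NRT3.1 carries no nitrate itself but is needed by the NRT2 proteins, which take up nitrate at low concentration. OPT proteins move longer peptides, glutathione or metal chelates.

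The libraries held 40294831 to 58392998 counts, with 21139 to 23087 genes detected in each. Every library correlated best with another of its own group, in log2 CPM (counts scaled to library size), with no correlation below 0.979 inside a group. No library pair of a group agreed within sampling noise. In 11 libraries the column name carries a mark whose meaning is not given, among them 2 of the 3 Car CT libraries, all 3 Car HS libraries and 2 of the 3 Cleo HL+HS libraries. The reads of both genotypes were assigned to gene models of sweet orange, so a difference in level between genotypes and a difference in how well their reads match those models cannot be told apart. As leaves are mixtures of cell types, fewer cells of a type and less RNA per cell cannot be told apart either. Mesophyll markers (17 genes) were the highest of the marker lists in every group. Of the 9 root markers, 2 were at 0 in all libraries, but others were detected. SHORT-ROOT (LOC102623584) reached 16.9 CPM and SCARECROW (LOC102625823) 18.996 CPM. The 9 root markers summed to 20.8 CPM in Car CT and 19.6 CPM in Cleo CT.

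Of the 81 genes, 60 passed the filter on low counts and were tested. The 21 that did not pass held at most 68 counts each over all libraries, and the lowest total among the 60 was 141 counts. All 9 NPF1, all 3 NPF3, all 5 NPF6 and all 4 NPF7 genes passed, as did NRT3.1. NPF2 lost the largest share, with 4 of 10 passing, while 9 of 11 NPF4, 12 of 19 NPF5, 3 of 4 NPF8 and 10 of 15 OPT genes passed. By the deposited TPM values (transcript abundances scaled to a fixed total per library), which are per length and so allow genes to be compared, 24 of the 81 had a mean of at least 10 over all libraries, 16 lay between 1 and 10 and 41 lay under 1.

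Averaged over all 48 libraries, 1 gene stood far above the others in leaf level. NPF6.4 (LOC102619172), whose Arabidopsis namesake was first described as the nitrate transporter NRT1.3, had a mean of 326 TPM, which is 27.7% of the sum over the 81 genes. It had the highest mean TPM in 15 of the 16 groups, the exception being Cleo HS, where OPT3 (LOC102612606) was at 227 ± 7.92 and NPF6.4 at 109.99 ± 6.48 TPM (SD, n = 3). NPF3.1-like LOC102609991 followed with 109 TPM, NPF2.13-like LOC102618258 with 71.4 TPM and NPF5.10-like LOC102615123 with 69.1 TPM. OPT3 (LOC102612606) with 62.5 TPM and the dipeptide carrier NPF8.3 (LOC102611745) with 57.8 TPM were the highest genes of the peptide classes. The nitrate transceptor NPF6.3 (LOC102617282), known in Arabidopsis as NRT1.1, was 12th in this order with 21.0 TPM.

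The summed TPM of the 81 genes was highest in untreated Car, at 1904 ± 56.4 (SD, n = 3), against 912 ± 53.9 in untreated Cleo. In Car it was lower in every stress group, down to 996 ± 11.5 under HL+HS. In Cleo it was highest under WS, at 1385 ± 78.3, and lowest under HL, at 657 ± 21.9. The Cleo libraries under WS+HL (1070 ± 45.2) and HS (1006 ± 38.7) also lay above every Cleo CT library. Those under WS+HL+HS (742 ± 35.4) lay below every Cleo CT library. These sums were not tested, and in Car no stressed library reached the lowest CT library. The share taken by NPF6.4 was 42.8% ± 1.16 under WS in Car against 27.2% ± 2.498 under CT, and 10.9% ± 0.32 under HS in Cleo against 20.3% ± 1.28 under CT.

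**Figure D1:**
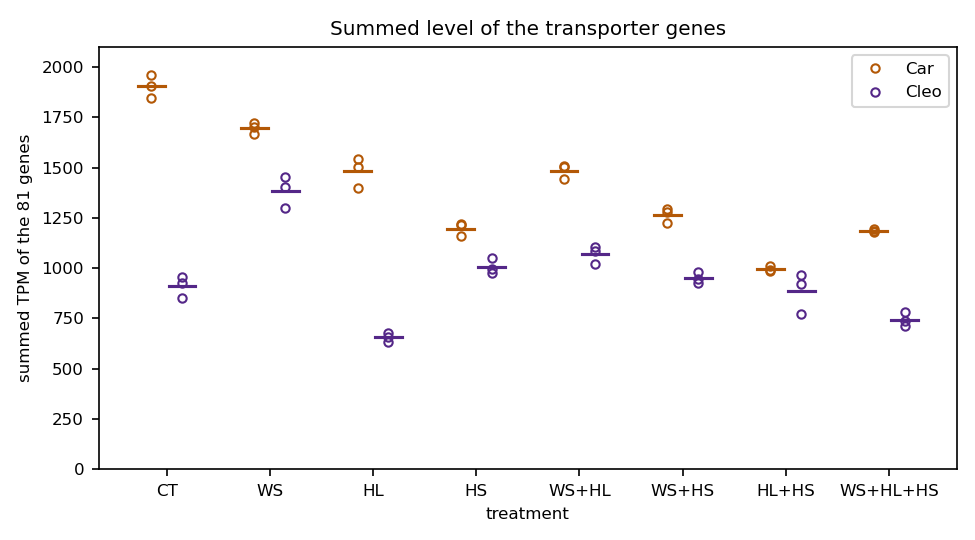
Summed TPM of the 81 transporter genes by treatment, 1 circle per library and a bar at the mean of 3 libraries, for Car and Cleo. The Car CT libraries are the highest of all, and the Cleo libraries under WS lie above those of Cleo CT.

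Responses were measured on the read counts with edgeR's quasi-likelihood test, and a gene was called at a Benjamini-Hochberg adjusted p below 0.05 over 23721 genes. Fold changes are log2 values with their standard error. Under water stress in Car, 15 transporter genes rose and 30 fell of the 60 tested, where 29.5% of all genes were called higher and 35.3% lower. Under HS in Car 8 rose and 26 fell (all genes 32.3% and 26.3%), and under HL 3 rose and 14 fell (all genes 9.69% and 8.77%). The HL count of Car is the least firm: with only the Car HL and Car CT libraries in the fit 5 of 52 genes tested were called (all genes 5.32%) in place of 17 of 60 (all genes 18.5%), and without Car HL replicate 2 it was 11. Falls outnumbered rises in every stress of Car, and in each the share of transporters called lower was above that of all genes.

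In the combined stresses of Car, 12 rose and 30 fell under WS+HL (all genes 28.8% and 33.2%). Under WS+HS 13 rose and 31 fell (all genes 31.9% and 35%), and under HL+HS 7 rose and 30 fell (all genes 29.5% and 31.4%). Car under WS+HL+HS had the most falls, 38, with 12 rises (all genes 32.5% higher and 38.7% lower). The median log2 fold change of the 60 genes there was -1.02, beside -0.07 over all genes tested. In the same libraries the summed phloem markers (14 genes) were at 87.1 CPM against 301 under CT, those of xylem and secondary wall (19 genes) at 27.1 against 322 CPM and those of mesophyll at 13606 against 27350 CPM. Under WS+HS the same lists were at 138, 56.5 and 12827 CPM. Under WS these lists were all lower as well, at 272, 136 and 7675 CPM. The phloem sums there (257.4 to 284.7 CPM) lay inside the range of the CT libraries (256.8 to 355.6). In the remaining Car stresses the lists did not all move this way. Under WS+HL they were at 333, 135 and 11932 CPM. Under HS they were at 375, 207 and 47153 CPM. Under HL they were at 194, 217 and 27921 CPM, and under HL+HS at 272, 298 and 40988. Their part in the falls was not tested. In the other Car stresses the transporter median ran from -0.90 to -0.27, with the all-gene medians between -0.08 and 0.06.

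In Cleo rises and falls were closer in number than in Car, except under HL. Under WS 20 transporter genes rose and 24 fell (all genes 31.2% higher and 33.4% lower), and under HS 10 rose and 16 fell (all genes 27.1% and 27.4%). Under HL 6 rose and 21 fell (all genes 17.7% and 18%). Under WS+HL 20 rose and 26 fell (all genes 31.2% and 33.7%), and under WS+HS 20 rose and 25 fell (all genes 32.2% and 32%). With HL+HS 18 rose and 19 fell (all genes 35.5% and 31.5%), and with WS+HL+HS 22 rose and 22 fell (all genes 37.5% and 35.1%). The median of the 60 genes under WS in Cleo was -0.83, but 0.00 when the 10 genes with a group of at most 3 counts were set to a floor of 3 counts per group, so its sign depends on these genes.

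**Figure D2:**
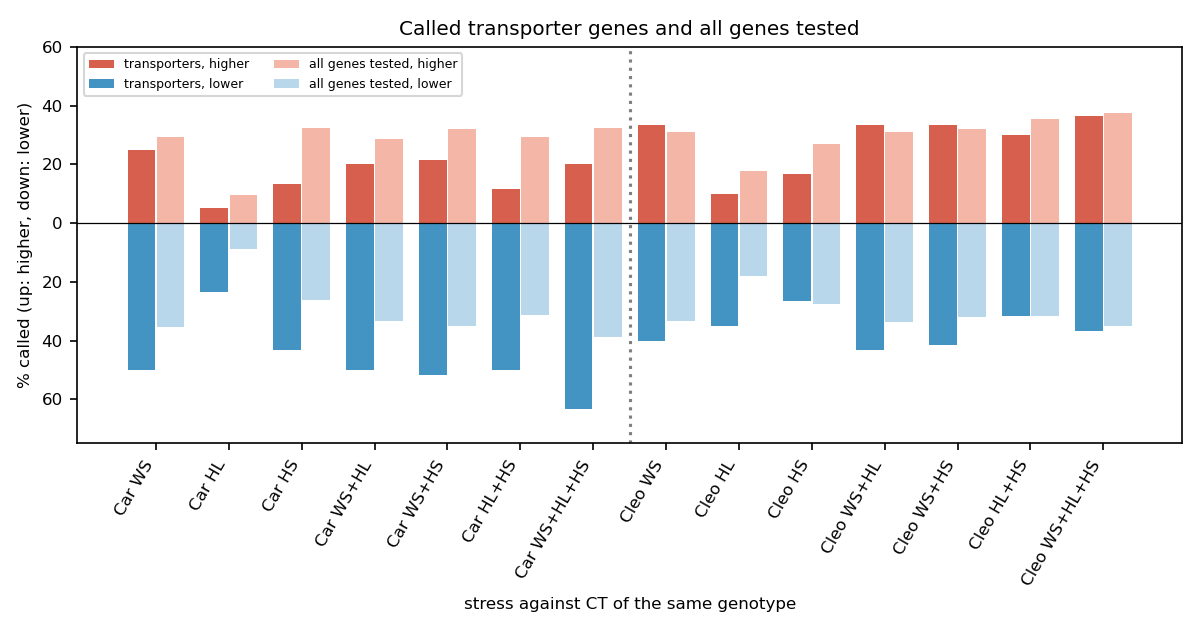
Share of the 60 tested transporter genes called higher (up) and lower (down) in each stress against CT of the same genotype, in percent, beside the share of all 23721 genes tested. In the 7 Car stresses the bars of transporters called lower are longer than those of all genes, as in Car WS+HL+HS with 38 of 60 against 38.7%.

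The single genes are ordered by role, beginning with nitrate uptake and storage in cells. NPF6.4 (LOC102619172) rose under WS and fell under HS in both genotypes. In Car its libraries held 602, 603 and 538 CPM under CT and 913, 874 and 887 under WS, a change of 0.62 ± 0.06. In Cleo they held 244, 242 and 282 CPM under CT and 643, 676 and 706 under WS, a change of 1.40 ± 0.06. The WS libraries lay above all CT libraries in both genotypes, and the rise was larger in Cleo (difference 0.78 ± 0.08, adjusted p = 3.05e-10). Under HS the gene fell by 1.697-fold in Car and 1.81-fold in Cleo.

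NPF6.3 (LOC102617282), a transporter that also senses nitrate in Arabidopsis, did the reverse in Car. Its Car libraries held 24.1, 21.6 and 24.2 CPM under CT, 49.6, 56.9 and 53.4 under HS and 75.95, 80.8 and 72.3 under WS+HS. Under WS alone they held 9.404, 9.14 and 11.3 CPM. The heat libraries of Car lay above CT without overlap and the WS libraries below it, with log2 changes of 1.19 ± 0.08, 1.71 ± 0.08 and -1.23 ± 0.09. In Cleo it rose slightly under WS (0.27 ± 0.08), unlike Car (difference 1.497, adjusted p = 1.74e-13). It rose there under HS (0.85 ± 0.08) and HL+HS (1.19 ± 0.08) but fell under WS+HL+HS, from 20.6, 19.2 and 19.7 to 12.03, 12.2 and 14.8 CPM. In Car it rose under WS+HL+HS, and the genotype difference of that response was -1.52 ± 0.12, adjusted p = 3.72e-14.

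Both NPF6.2 genes bear the name of the Arabidopsis carrier that stores nitrate in the petiole. NPF6.2 (LOC102616974, chosen after its values were seen) rose from 2.95, 1.43 and 2.04 to 33.5, 35.99 and 33.1 CPM under HS in Car, a log2 change of 3.99 ± 0.32, adjusted p = 1.37e-13. In Cleo it went from 0.364, 0.225 and 0.899 to 8.9003, 6.85 and 7.73 CPM, 4.01 ± 0.38, and it fell under WS in Car (-3.98 ± 0.49). Its HS libraries lay above every CT library. NPF6.2-like LOC102617586 held 19.9, 20.5 and 23.7 CPM in Cleo CT and reached 119, 106 and 91.96 under HL+HS (2.31 ± 0.14) and 87.1, 87.1 and 93.9 under WS+HL+HS (2.07 ± 0.14). In Car it fell under WS+HL+HS, to 3.803 ± 0.374 CPM from 8.49 ± 1.26 under CT (SD, n = 3), and the difference between genotypes was 3.23 ± 0.21, adjusted p = 1.15e-16.

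NPF6.1 (LOC102623482) fell in every treatment that included water stress. Its Car libraries held 169, 279.9 and 139 CPM under CT and 16.96, 15.04 and 17.2 under WS, a log2 change of -3.58 ± 0.27, adjusted p = 3.92e-14. In Cleo they held 53.5, 54.6 and 24.9 and 4.52, 5.35 and 5.77, a change of -3.09 ± 0.28. The groups did not overlap in either genotype, although the CT libraries of this gene spread widely. The summed mesophyll markers moved the same way, with 27350 CPM under CT and 7675 under WS in Car, and 37423 and 5304 in Cleo, and their part in this fall was not tested.

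**Figure D3:**
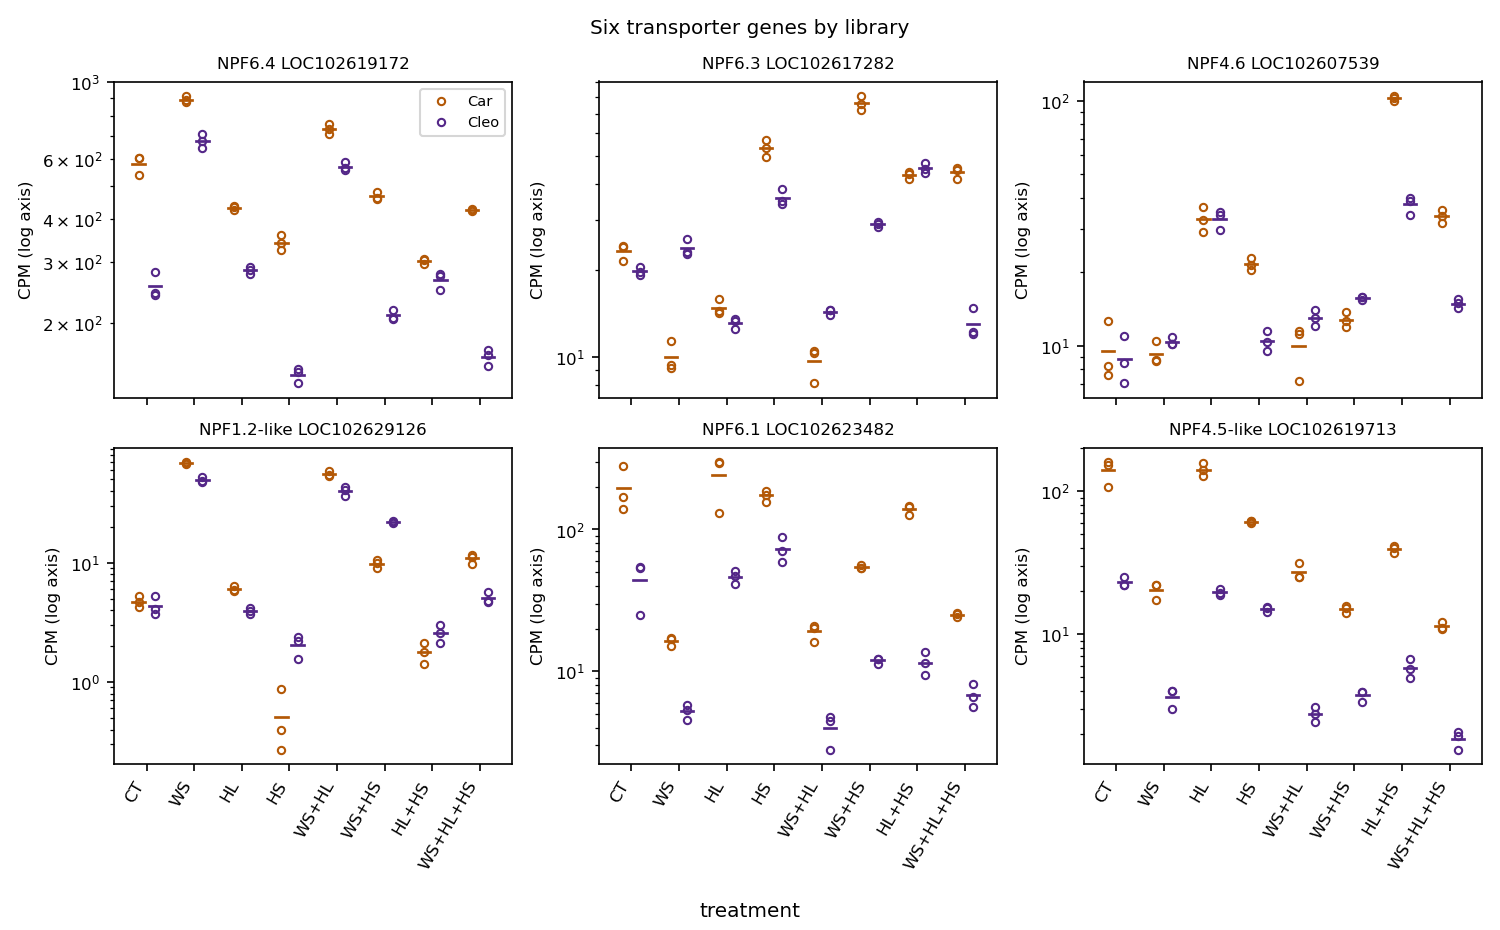
CPM on a log axis by treatment for 6 transporter genes, 1 circle per library with a bar at the mean of 3 libraries. NPF1.2-like LOC102629126 is high in WS and WS+HL of both genotypes, NPF6.1 and NPF4.5-like LOC102619713 are low there, and NPF4.6 is high under HL and HL+HS.

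The second role is the transfer of nitrate between xylem and phloem, for which NPF1.2, NPF2.13, NPF7.2 and NPF7.3 are known in Arabidopsis. A trio of NPF1.2-like genes rose with water stress. LOC102629126 held 5.28, 4.66 and 4.21 CPM in Car CT and 69.6, 66.96 and 67.6 under WS, a log2 change of 3.85 ± 0.15, adjusted p = 7.21e-24. In Cleo it went from 5.26, 4.07 and 3.75 to 47.02, 51.8 and 48.1 CPM, 3.49 ± 0.15. The WS libraries lay far above CT in both genotypes, and the other two of the trio, LOC102628275 and LOC102610772, changed by 3.79 and 3.68 in Car and 3.39 and 3.44 in Cleo. With heat added to the water stress the rise of LOC102629126 shrank, to 1.05 ± 0.15 in Car and 2.32 ± 0.15 in Cleo under WS+HS.

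Under heat alone the trio fell in Car. LOC102629126 dropped to 0.4, 0.869 and 0.271 CPM (-3.18 ± 0.20), and LOC102628275 changed by -3.24 ± 0.22. In Cleo the fall of LOC102629126 was smaller, -1.10 ± 0.17, and the difference between genotypes was 2.08 ± 0.27, adjusted p = 2.49e-08. All 3 Car HS libraries carry the unexplained column mark, so no unmarked value of this response exists. How the authors treated reads that match several near-identical genes is not given, so the split of reads within the trio is uncertain.

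A further NPF1.2-like gene with few reads, LOC112499215 (chosen after its values were seen), rose under WS too, from 0.075 ± 0.0413 to 1.63 ± 0.688 CPM in Car, while Cleo went from 0.141 ± 0.0733 to 2.09 ± 0.196 (SD, n = 3), with changes of 4.42 ± 0.90 and 3.86 ± 0.84.

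Other NPF1.2 genes fell. NPF1.2-like LOC102626689 held 12.8, 11.3 and 17.4 CPM in Car CT and 0.169, 0 and 0.136 in Car HS, the largest fall under HS among transporters whose mean log2 CPM was 1 or more (-7.06 ± 0.40, adjusted p = 2.19e-18). In Cleo it went from 20.6, 20.9 and 23.98 to 3.71, 4.19 and 2.8998 CPM, -2.59 ± 0.27, and under HL+HS it fell by 23.2-fold in Car and 28.8-fold in Cleo. NPF1.2 LOC102615319 rose under HS in Car (1.10 ± 0.14) and was at 0.03 ± 0.14 in Cleo, where it did not pass. It fell under WS and WS+HL in both, as LOC102626689 did.

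NPF2.13-like LOC102618258, named after the Arabidopsis carrier that loads nitrate into the phloem of old leaves, moved in opposite directions in the genotypes. In Car it held 173, 145 and 181 CPM under CT and 88.9, 97.2 and 84.3 under WS. In Cleo it held 62.99, 63.5 and 59.5 under CT and 142, 146 and 142 under WS. Car therefore started higher and ended lower, with changes of -0.88 ± 0.09 in Car and 1.21 ± 0.09 in Cleo, and the difference was 2.09 ± 0.13, adjusted p = 5.91e-17. The gene fell in all 7 stresses of Car and rose in 6 of 7 in Cleo, the exception being HL (-0.56 ± 0.09). The Car HL value, -0.25 ± 0.09, lost its call without Car CT replicate 1 or 3 or Car HL replicate 2 or 3, with adjusted p between 0.15 and 0.245, and with several other settings. Summed phloem markers (14 genes) were at 301 CPM in Car CT and 272 under WS, and at 425 in Cleo CT and 263 under WS. In Car the WS libraries (257.4 to 284.7 CPM) lay inside the range of the CT libraries (256.8 to 355.6). The part of these markers in the changes of the gene was not tested.

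NPF7.3 and NPF7.2, which in Arabidopsis load nitrate into the root xylem and take it back out, had few reads. NPF7.3 (LOC102612196, chosen after its values were seen) stood at 2.8997 ± 0.727 CPM in Car CT and 0.272 ± 0.0745 under WS+HS, a log2 change of -3.41 ± 0.56, and changed by -4.57 ± 0.61 in Cleo. NPF7.2 (LOC102630786) rose in Cleo under HL+HS, from 1.201, 1.82 and 0.193 to 11.02, 7.21 and 6.03 CPM (2.90 ± 0.81, adjusted p = 0.00196). With the libraries that carry the column mark left out this was 2.02, adjusted p = 0.128. The gene passed the test in no Car stress, where its values were between 0.44 and 1.68. The genotype difference of the HL+HS response was 1.68 ± 1.12, adjusted p = 0.226.

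The third role is the transport of hormones and defence compounds. NPF3.1 moves gibberellin and nitrite in Arabidopsis, and the citrus table holds 3 genes of this name. LOC102609680 differed most between the genotypes of all transporters whose mean log2 CPM was 1 or more. It held 80.3, 46.3 and 90.6 CPM in Car CT and 0.419, 0.526 and 0.343 in Cleo CT, a log2 difference of -7.38 ± 0.28, adjusted p = 3.32e-23. In Cleo it rose in all 7 stresses, to 116, 102 and 91.6 CPM under HL+HS, 57.9, 53.3 and 54.8 under WS+HL+HS and 13.2, 12.3 and 11.5 under HS. The log2 changes were 7.89 ± 0.28, 6.99 ± 0.28 and 4.83 ± 0.29. Under HL+HS the mean of Cleo came within a factor of 2 of the Car mean, 153 ± 10.97 CPM (SD, n = 3), where Car had changed by 1.08 ± 0.17.

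Its neighbour, NPF3.1-like LOC102609991, also rose in all 7 stresses of Cleo, though the small rise under HL (0.28 ± 0.10) lost its call without Cleo CT replicate 1 or 2 or Cleo HL replicate 3 (adjusted p from 0.0604 to 0.095). It went from 45.1, 44.8 and 55.5 CPM under CT to 239, 269 and 258 under WS, a change of 2.40 ± 0.10. Car CT was already at 232, 184 and 243 CPM, and Car WS was at 242, 257 and 234. The Car groups overlapped and the value of 0.15 ± 0.09 did not pass, while under HS and HL+HS the gene fell in Car (-1.04 ± 0.09 and -1.18 ± 0.10). The difference of the WS responses was 2.24 ± 0.13, adjusted p = 4.70e-17. The remaining NPF3.1-like gene, LOC102627768, fell under WS+HS in both genotypes (-2.52 ± 0.23 in Car and -1.96 ± 0.22 in Cleo).

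NPF2.11-like genes are named after an Arabidopsis glucosinolate importer. LOC102610070 had the largest rise under water stress in Cleo, from 3.93, 3.74 and 2.44 CPM to 216, 231 and 213, a change of 6.02 ± 0.18, adjusted p = 2.09e-28. In Car it rose from 7.401, 4.2005 and 7.36 to 53.1, 51.9 and 53.1 CPM, 3.05 ± 0.16, and under HS it dropped to 0.4, 0.49 and 0.441, -3.83 ± 0.22. Both rises are without overlap, and the difference between genotypes under WS was 2.97 ± 0.22, adjusted p = 2.57e-14. Under HL+HS it fell in Car (-1.77 ± 0.19) and rose in Cleo (2.40 ± 0.16). The other NPF2.11-like genes that were tested, LOC102610685 and LOC102624501 (chosen after their values were seen), rose under WS too, by 1.10 ± 0.11 and 1.19 ± 0.12 in Car and 1.79 ± 0.11 and 1.91 ± 0.12 in Cleo.

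NPF4.6, known in Arabidopsis as an importer of abscisic acid that also carries nitrate, has a pair of genes in the table, and they differed. NPF4.6 LOC102607539 rose under HL. It held 8.27, 12.6 and 7.58 CPM in Car CT, 28.9, 32.6 and 36.6 under HL and 103, 105 and 99.3 under HL+HS. In Cleo it held 8.499, 10.9 and 7.001 CPM under CT and 34.2, 29.8 and 35.04 under HL, and a mean of 37.7 ± 3.05 under HL+HS (SD, n = 3). The HL and HL+HS libraries lay above all CT libraries of their genotype, and the changes under HL were 1.79 ± 0.14 in Car and 1.90 ± 0.14 in Cleo. Under HL+HS the change was 3.43 ± 0.15 in Car and 2.09 ± 0.14 in Cleo, a difference of -1.34 ± 0.20, adjusted p = 2.81e-07. It also rose under HS in Car (1.18 ± 0.14). With water stress added to high light the level was 9.92 ± 2.37 CPM in Car (SD, n = 3) and the value of 0.07 ± 0.14 did not pass, while in Cleo it was 12.99 ± 0.921 CPM and rose (0.56 ± 0.14).

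The more abundant NPF4.6-like LOC102615622 (chosen after its values were seen) fell under HL, from 37.9 ± 6.46 to 30.004 ± 5.399 CPM in Car, while Cleo went from 35.2 ± 5.17 to 27.8 ± 0.452 (SD, n = 3), with changes of -0.34 ± 0.10 and -0.34 ± 0.10. The Car call was lost without Car CT replicate 2 or Car HL replicate 1 (adjusted p = 0.196 and 0.134), and the Cleo call without Cleo CT replicate 2 (0.0745). It rose under WS in both genotypes (0.66 ± 0.10 in Car and 0.55 ± 0.10 in Cleo) and fell under HS in Car (-1.41 ± 0.10).

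Of the remaining NPF4 genes, NPF4.3-like LOC102620976 and NPF4.5-like LOC102619408 fell in all 7 stresses of both genotypes. For LOC102619408 the smaller falls rest on single libraries. Its call was lost under HL in Car without Car CT replicate 1 (adjusted p = 0.0827), under HL in Cleo without Cleo CT replicate 2 or Cleo HL replicate 3 (0.0734 and 0.0629), and under HL+HS in Cleo without Cleo CT replicate 1 or 2 or Cleo HL+HS replicate 3 (0.0706, 0.141 and 0.24). LOC102620976 kept its call without each library in turn. It went from 145, 86.3 and 152 CPM to 11.5, 11.3 and 9.71 under HS in Car (-3.56 ± 0.18, adjusted p = 1.82e-19) and from 79.1, 81.3 and 83.5 to 25.4, 21.99 and 26.6 in Cleo (-1.72 ± 0.17). NPF4.5-like LOC102619713 fell by 12.4-fold in Car and 12.4-fold in Cleo under WS+HL+HS, and did not pass under HL. Of the 9 NPF4 genes tested, 8 fell and 1 rose under WS+HL+HS in Car, the riser being NPF4.6 LOC102607539. In Cleo 5 fell and 3 rose there, and 3 fell and 3 rose under HL+HS.

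NPF5 is the largest subfamily, with substrates that are mostly not known. NPF5.9 (LOC102616258), whose Arabidopsis namesake has been linked to the metal chelator nicotianamine, and NPF5.1 (LOC102626040) fell in all 7 stresses of both genotypes. The weakest of these falls was NPF5.9 under HS in Cleo (-0.29 ± 0.12), which lost its call without Cleo CT replicate 2 or 3 or any of the Cleo HS libraries (adjusted p from 0.0531 to 0.112). NPF5.1 under HL in Car (-0.46 ± 0.15) lost it without Car CT replicate 2 (0.237) or Car HL replicate 1 (0.246). NPF5.9 held 42.3, 31.2 and 39.7 CPM in Car CT and 7.26, 9.57 and 7.77 in Car WS, against 129, 133 and 142 and 47.1, 53.6 and 56.6 in Cleo. Cleo was thus higher under both treatments, and the falls were -2.20 ± 0.13 and -1.36 ± 0.12. NPF5.6 (LOC102619014) rose under WS in Cleo from 16.1 ± 1.08 to 63.6 ± 3.56 CPM (SD, n = 3), 1.98 ± 0.13, while Car stood at 0.12 ± 0.13 and did not pass. The difference was 1.86 ± 0.18, adjusted p = 5.85e-11. NPF5.10-like LOC102615123 changed little for its level, with log2 values between -0.13 and 0.67 in the 14 comparisons.

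The fourth role is peptide transport. NPF8 proteins carry di- and tripeptides, and NPF8.3 (LOC102611745) was the highest. It held 40.5, 41.1 and 47.98 CPM in Car CT and 65.4, 77.9 and 72.3 in Car WS, with 86.98, 85.3 and 95.6 and 102, 107 and 113 in Cleo. It was higher in Cleo under CT (1.05 ± 0.08), and its rise under WS was 0.73 ± 0.08 in Car and 0.26 ± 0.08 in Cleo. NPF8.1-like LOC102609697 rose most in Cleo where high light and heat came together. It held 4.22, 3.45 and 3.68 CPM under CT, 3.06, 4.05 and 2.93 under HL, 4.47, 4.25 and 3.06 under HS and 44.99, 49.1 and 50.98 under HL+HS. The change under HL+HS was 3.67 ± 0.15, adjusted p = 3.88e-23, and that under WS+HL+HS was 3.71 ± 0.15, while HL and HS alone did not pass.

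Smaller rises of LOC102609697 in Cleo came under WS (0.74 ± 0.15) and WS+HL (0.88 ± 0.15), and it fell under WS+HS (-0.96 ± 0.16). In Car the gene fell in all 7 stresses, of which HL (-0.43 ± 0.14) lost its call without Car CT replicate 1 or 3 or Car HL replicate 2 or 3 (adjusted p from 0.0702 to 0.264). It went from 12.97, 12.3 and 13.2 CPM under CT to 6.303, 6.25 and 7.04 under HL+HS. The genotype difference of the HL+HS response was 4.65 ± 0.21, adjusted p = 3.76e-21. NPF8.1-like LOC102613675 rose in 4 stresses of each genotype. It rose under WS in both, with a value of 1.04 ± 0.20 in Car, and under WS+HL+HS in both (1.19 ± 0.20 in Car and 1.98 ± 0.22 in Cleo). In Car it also rose under WS+HL (1.49) and WS+HS (1.47).

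Among the oligopeptide transporters, OPT3 is known in Arabidopsis for loading iron into the phloem. LOC102612606 fell under WS from 126, 93.98 and 138 to 31.1, 33.4 and 28.5 CPM in Car, while Cleo went from 178, 176 and 192 to 21.7, 22.1 and 24.9. The WS libraries lay below all CT libraries, with changes of -1.95 ± 0.12 and -2.99 ± 0.12. Under HS it fell in Car (-0.63 ± 0.11) and rose in Cleo to 384, 385 and 374 CPM (1.06 ± 0.11), a difference of 1.69 ± 0.16, adjusted p = 1.22e-11. OPT1-like LOC102619491 fell almost to nothing under WS, to 0.284, 0 and 0.177 CPM in Car and 0, 0.172 and 0.42 in Cleo, from 3.88, 2.83 and 4.94 and 12.5, 11.1 and 12.5. The same gene rose under HS, by 2.02 ± 0.26 in Car and 2.57 ± 0.25 in Cleo.

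OPT6 (LOC102629067), whose Arabidopsis namesake transports glutathione and peptides, rose in all 7 stresses of Cleo. It went from 5.71, 4.43 and 4.28 CPM under CT to 14.8, 17.5 and 19.96 under WS+HL+HS, 1.85 ± 0.14. In Car the largest change was 0.89 ± 0.14 under HL+HS. OPT7 (LOC102614627) fell under HL+HS in both, by 2.16-fold in Car and 3.47-fold in Cleo.

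**Figure D4:**
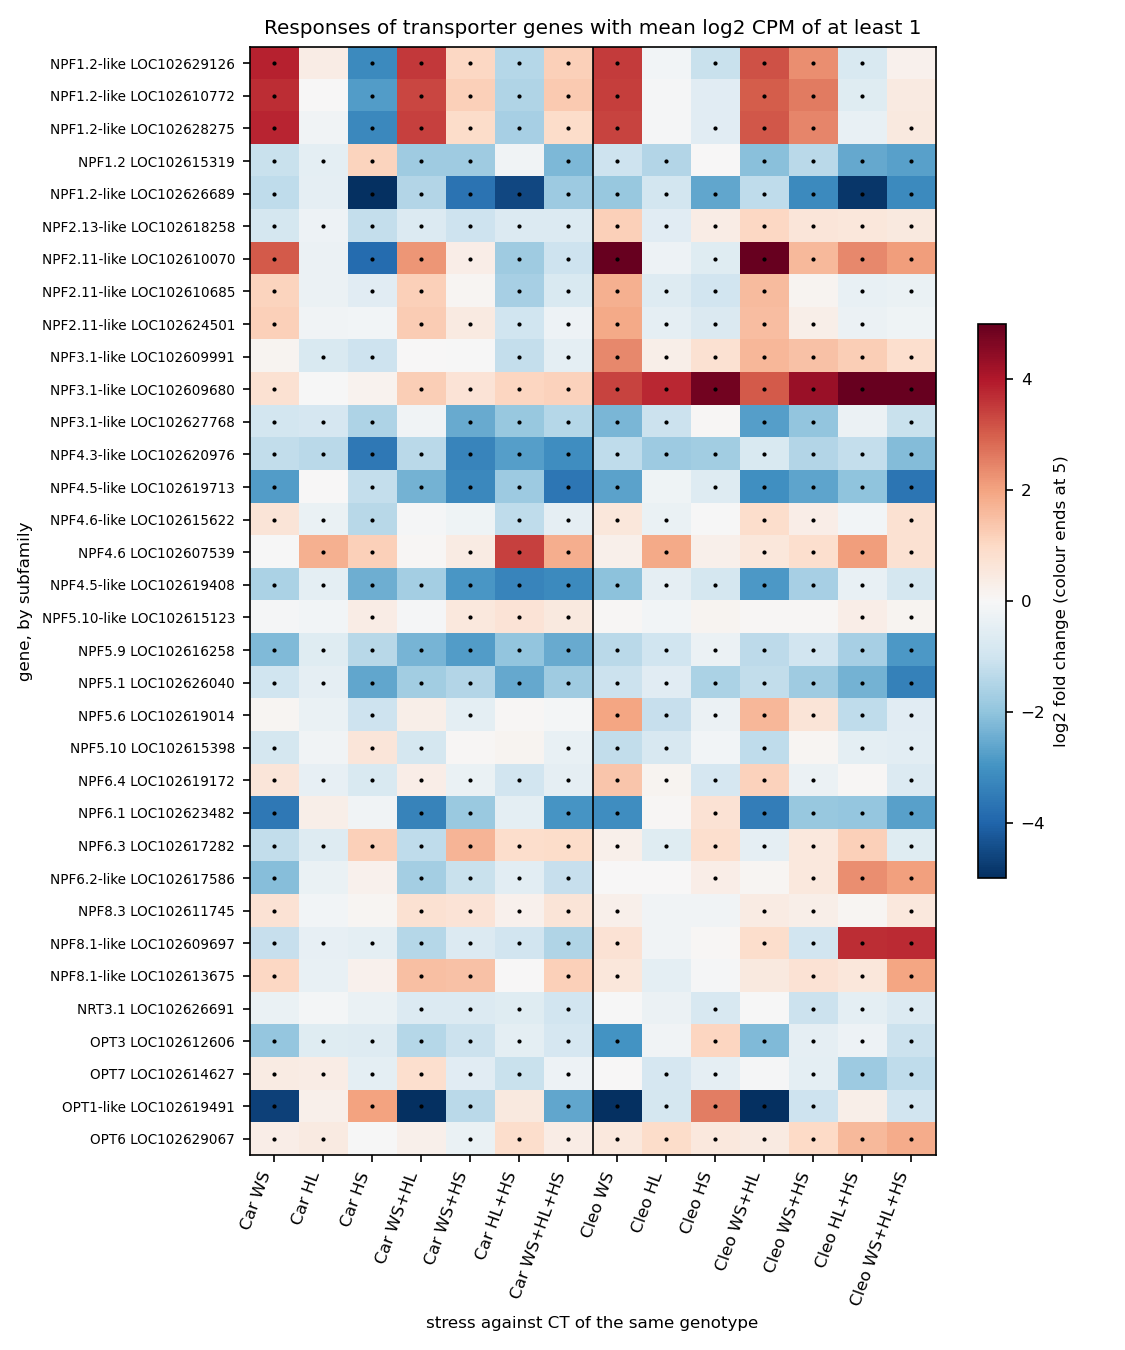
Log2 fold change of the 34 transporter genes whose mean log2 CPM was 1 or more in the 14 stress comparisons, coloured from blue (lower) to red (higher) with the colour ending at 5, and a dot where the gene was called. The NPF4.3-like, NPF4.5-like LOC102619408, NPF5.9 and NPF5.1 rows are blue with a dot throughout, and NPF3.1-like LOC102609680 is red in all Cleo columns.

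NRT3.1 (LOC102626691), the partner protein of the NRT2 carriers, held 7.01, 5.77 and 6.94 CPM in Car CT and 11.4, 13.9 and 13.1 in Cleo CT. The Cleo libraries were all higher, 0.96 ± 0.17, adjusted p = 4.31e-06. It fell in 4 of 7 stresses in each genotype. With the marked libraries left out the Car calls under WS+HL, WS+HS and HL+HS were lost (adjusted p = 0.161, 0.0713 and 0.126). The Cleo call under HL+HS was lost without Cleo HL+HS replicate 1 (0.116). Under WS+HL+HS it was at 3.04, 4.23 and 2.83 CPM in Car (-0.96 ± 0.18) and 8.27, 8.08 and 7.58 in Cleo (-0.68 ± 0.17). Of the 5 NRT2 genes in the table, which were listed after it was read, 3 were tested. NRT2.5 (LOC102630064), a carrier of nitrate-starved plants in Arabidopsis, was at 25.8 ± 5.34 CPM in Cleo CT and 0.953 ± 0.0548 in Car CT (SD, n = 3), 4.76 ± 0.33. It fell in 6 of the 7 Car stresses and in all 7 of Cleo, for example with a value of -5.14 ± 0.35 under WS+HL+HS in Cleo. NRT2.7 (LOC102627329), which loads nitrate into seed vacuoles in Arabidopsis, fell in all 14 comparisons, with values between -2.31 and -0.51. The Car calls under WS and WS+HL were lost with the marked libraries left out (adjusted p = 0.202 and 0.212).

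Without stress the measured levels differed between the genotypes, with the limit on read matching given above. Between Cleo CT and Car CT, 11 of the 60 genes were higher in Cleo and 28 lower, where 33% of all genes were called higher and 34.4% lower. The median was -0.66, beside 0.00 over all genes. NPF3.1-like LOC102609680, NPF4.5-like LOC102619713 (-2.60 ± 0.12) and LOC102619408 (-2.31 ± 0.14) had the largest deficits in Cleo among genes whose mean log2 CPM was 1 or more. NPF5.9 (1.84 ± 0.12), OPT1-like LOC102619491 (1.63 ± 0.26) and NPF6.2-like LOC102617586 (1.33 ± 0.14) had the largest excess.

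The responses differed between genotypes for many members. The difference (Cleo response minus Car response) was called for 19 of 60 genes under WS (all genes 36.1%), 10 under HL (all genes 15.4%) and 29 under HS (all genes 43.7%). It was called for 25 under WS+HL (all genes 40%), 26 under WS+HS (all genes 41.7%), 34 under HL+HS (all genes 50.1%) and 37 under WS+HL+HS (all genes 56.4%). In percent of the 60 genes these were 16.7% to 61.7%, near the shares of all genes. The sign was more often positive than negative in every stress but HL, with 27 positive and 10 negative differences under WS+HL+HS, where all genes gave 29.1% and 27.3%.

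A gene called in opposite directions in the genotypes was found 4 times under WS, 3 under HL, 3 under HS, 2 under WS+HL, 4 under WS+HS, 6 under HL+HS and 10 under WS+HL+HS. Of all genes tested, 4% were called in opposite directions under WS, 1.03% under HL, 8.2% under HS, 4.52% under WS+HL, 5.5% under WS+HS, 8.76% under HL+HS and 10.8% under WS+HL+HS. The difference was called in each of the transporter cases. Opposite calls in the same libraries make this likely, so it adds no separate evidence. NPF2.13-like LOC102618258 was among them in 6 stresses, NPF8.1-like LOC102609697 and NPF3.1-like LOC102609991 in 4 each. Of these calls, 5 belong to genes with few reads, 1 each to NPF5.5 LOC102611396, NPF4.2-like LOC102618639, NPF1.1-like LOC102626982, NPF4.5-like LOC102617813 and NPF5.2-like LOC102610124. LOC102610124, named after a dipeptide carrier and chosen after its values were seen, was at 4.05 ± 0.9 CPM in Car CT and 0.311 ± 0.0601 under WS+HL+HS, against 0.111 ± 0.0374 and 0.752 ± 0.11 in Cleo (SD, n = 3).

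**Figure D5:**
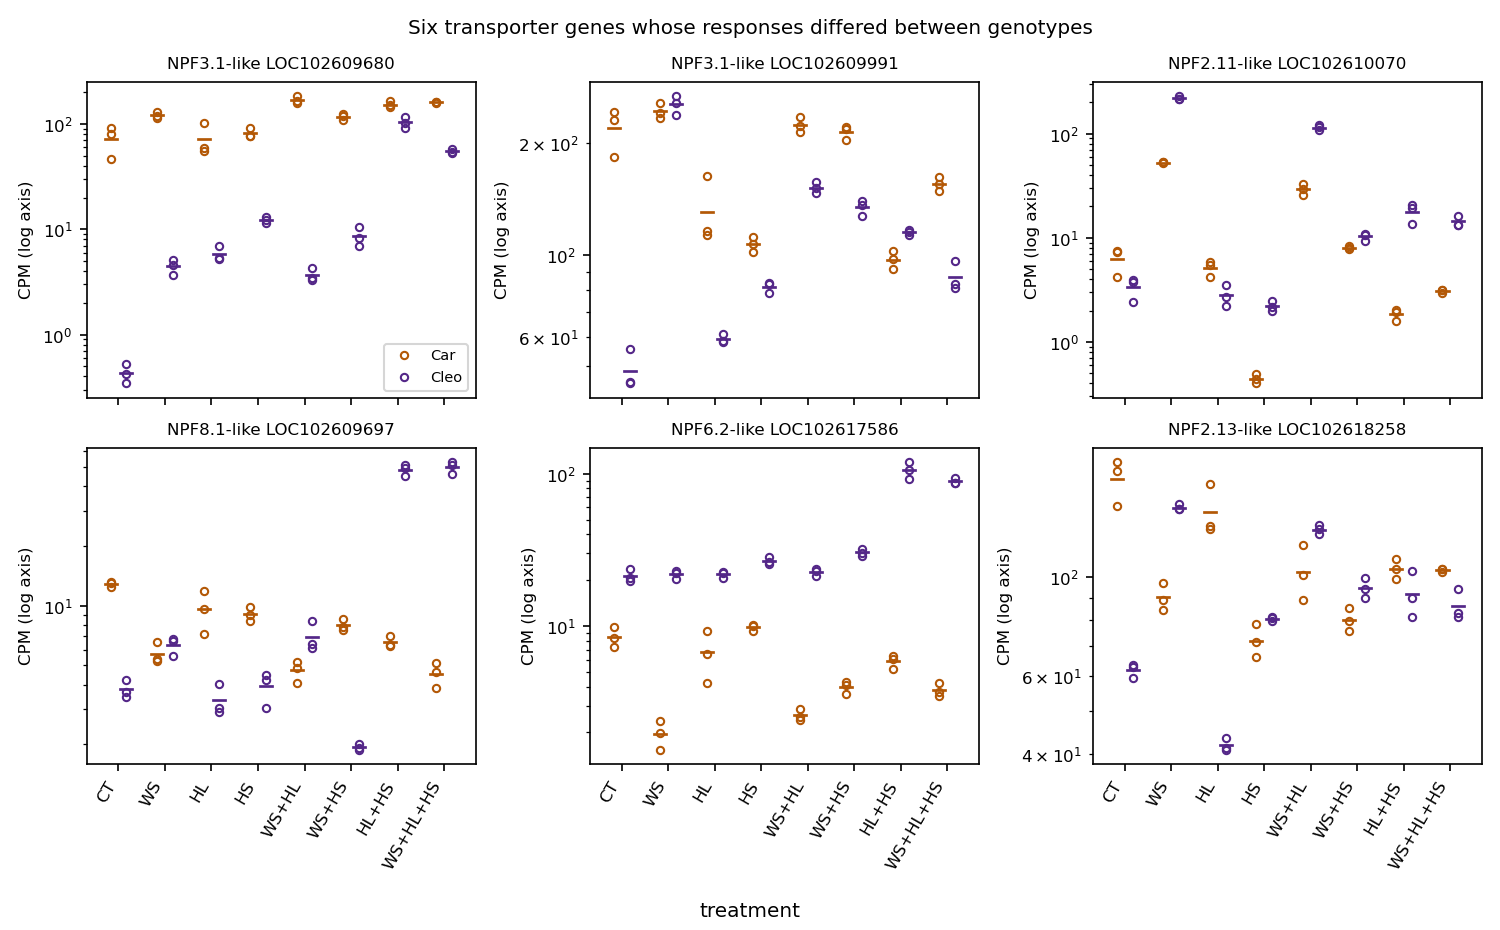
CPM on a log axis by treatment for 6 transporter genes whose responses differed between genotypes, 1 circle per library with a bar at the mean of 3 libraries. NPF3.1-like LOC102609680 climbs from 0.429 CPM in Cleo CT to 103 under HL+HS, and NPF8.1-like LOC102609697 stands out in the Cleo HL+HS and WS+HL+HS columns.

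Several members lie side by side on the chromosome. On another sweet orange assembly (DVS_A1.0), used only for the order of genes, 68 of the 81 could be placed and 24 had another member as the next protein-coding gene. The neighbours LOC102609991 and LOC102609680 (NPF3.1-like) both rose in every stress of Cleo. Under CT, though, the first was at 48.5 and the second at 0.429 CPM there. In Car the first was called lower in 4 stresses and higher in 0, and the second higher in 5 and lower in 0. Under HL+HS in Car the first changed by -1.18 and the second by 1.08. Under WS+HL+HS in Car these values were -0.50 and 1.15. LOC102619713 and LOC102619408 (NPF4.5-like) both fell under WS. Their falls differed in size under HL+HS in Cleo, where the first changed by -2.00 ± 0.13 and the second by -0.36 ± 0.14. Leaving out 1 of 3 libraries ended the call of the second, as given above. LOC102610070 and LOC102610685 (NPF2.11-like) both rose under WS and both fell under HS in Car, the first by 14.2-fold and the second by 1.48-fold. They moved in opposite directions under HL+HS in Cleo, where the first rose (2.40 ± 0.16) and the second was called lower.

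The genes that act on nitrate after uptake are given from lists of product words, chosen with earlier results of these data known. Nitrate reductase LOC102610866, the first enzyme of nitrate assimilation, fell in all treatments that included heat. Its Car libraries held 214, 194 and 239 CPM under CT and 18.01, 17.8 and 16.4 under WS+HS (-3.63 ± 0.09), and in Cleo it was at 292, 309.7 and 282 and 15.1, 17.9 and 18.6 under WS+HL+HS (-4.10 ± 0.09). Nitrite reductase LOC102616714, the next enzyme, fell as well, with a value of -2.48 ± 0.10 in Cleo under WS+HL+HS. Both genes fell under HS, WS+HS and WS+HL+HS in both genotypes, and under HL+HS in Cleo. Nitrate reductase also fell without heat, under HL in both genotypes (-0.43 ± 0.08 in Car and -1.25 ± 0.08 in Cleo) and under WS+HL in Car (-1.23 ± 0.08). The last was a larger fall than that under HS in Cleo (-0.44 ± 0.08). Under WS alone nitrate reductase was at -0.06 ± 0.08 in Car, where it did not pass, and rose in Cleo (0.58 ± 0.08). Nitrite reductase fell under WS in both genotypes and under WS+HL in Car. Under WS+HL in Cleo 1 of the 2 genes was called lower.

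Of 12 genes of ammonium and amide assimilation, 7 rose and 5 fell under WS in Car, and 6 rose and 2 fell in Cleo, with medians of 0.23 and 0.22 beside -0.08 and 0.00 over all genes. Of all genes, 29.5% were called higher and 35.3% lower under WS in Car, and 31.2% and 33.4% in Cleo. Asparagine synthetase LOC102628580, which makes the nitrogen storage amide asparagine, rose far. It held 1.48, 0.951 and 1.59 CPM in Car CT, 349, 404 and 384 under WS and 840.4, 845 and 884 under WS+HS, with 18.8, 17.6 and 16.2 and 98.04, 93.3 and 88.9 in Cleo CT and WS. The changes under WS were 8.13 ± 0.18 in Car and 2.41 ± 0.13 in Cleo. Chloroplast glutamine synthetase LOC102610338 fell under WS, with values of -1.31 ± 0.11 in Car and -1.40 ± 0.11 in Cleo.

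Among 9 nitrate and anion channels, 5 rose and 2 fell under HL+HS in Cleo, and 2 rose and 3 fell in Car, with medians of 0.33 and -0.07 beside 0.02 and 0.00 over all genes, of which 35.5% and 31.5% were called higher and lower in Cleo and 29.5% and 31.4% in Car. SLAH2 (LOC102621338), a nitrate channel of Arabidopsis, went from 0.109, 0.0751 and 0.107 CPM in Cleo CT to 76.3, 67.7 and 74.3 under HL+HS and 149, 166 and 163 under WS+HL+HS, a change of 10.65 ± 0.36 in the last. In Car it stayed between 0.251 and 0.464 CPM in group means. SLAH1-like LOC102624487 had no count in Cleo CT and 744 counts in the 3 Cleo HL+HS libraries, which is at least 280-fold higher against a floor of 3 counts over the group. The vacuolar anion exchanger CLC-b (LOC102628105) rose under HS in both genotypes (1.13 ± 0.08 and 0.89 ± 0.08).

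The counts of the next 3 lists are for WS, where all genes gave 29.5% higher and 35.3% lower in Car, against 31.2% and 33.4% in Cleo. Of the 5 NIN-like regulators, which switch on nitrate-responsive genes, 1 rose and 1 fell under WS in Car and 2 rose and 3 fell in Cleo, with medians of 0.08 and -0.21. NLP2 (LOC102616132) rose by 1.52 ± 0.11 and 1.77 ± 0.11, and NLP7 (LOC102623162) fell, with values of -0.91 ± 0.08 and -1.50 ± 0.08. Of the 6 ammonium transporters tested, 3 rose and 0 fell under WS in Cleo, and 1 rose and 2 fell in Car. AMT1 member LOC102628413 rose there (0.45 ± 0.08) and fell in Car (-0.77 ± 0.08). Of 39 amino acid transporters tested, 21 rose and 11 fell under WS in Car (median 0.67), and 21 rose and 10 fell in Cleo (median 0.55). The most abundant, amino acid permease LOC102628128, rose from 12.05, 11.6 and 11.3 to 792, 831 and 798 CPM in Cleo (6.11 ± 0.06) and by 3.81 ± 0.06 in Car.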

How the data were processed

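Leaf mRNA libraries (TruSeq Stranded mRNA, per the labels' protocols) of 16 groups with 3 biological replicates were analysed. The submitters' processing notes name FastQC 0.11.7, HISAT2 2.1.0 and StringTie 2.1.3b, and the gene models are those of the sweet orange assembly Csi_valencia_1.0, per the file headers. The sources used here do not say how reads were trimmed, whether counting used strand, or how multiply matching reads were treated. The deposited table holds read counts, FPKM and TPM per gene and library. StringTie is the only quantifier named, so the deposited counts may be rounded estimates from coverage rather than reads tallied 1 by 1, and the count floors and the comparison with sampling noise take them as reads. The deposited counts were used for all tests, the deposited TPM for levels between genes, and the deposited FPKM values were not used. Whether the biological replicates are single plants is not given, so p-values cover the spread among these libraries, which may be technical.

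CPM used TMM library sizes. Genes were filtered with filterByExpr over the 16 groups, which left 23721 of 30136, and 1 edgeR quasi-likelihood fit over 48 libraries (edgeR 4.0.16, limma 3.58.1, R 4.3.3; robust, trended dispersion, 32 residual degrees of freedom) gave 22 comparisons: 14 stresses against CT of the same genotype, Cleo CT against Car CT, and 7 genotype differences in response. Standard errors were calculated back from the F statistics. Calls have a Benjamini-Hochberg adjusted p below 0.05. A floor of 3 counts per group was used for bounds. The script was tested on simulated data. DESeq2 1.42.0 served as an alternative, with other scalings, filters, blocks and left-out libraries.

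Genes are named by a rule: NRT3.1, the highest TPM of each subfamily, and per comparison the 3 largest called rises and falls at a mean log2 CPM of 1 or more, not overlapping for stresses. The named pathway genes are the most abundant and the largest called changes of each list, and others were chosen after their values were seen. The members and lists were chosen with earlier results of these data known. NIN-like and glutamate synthase were matched at word starts. In 1 of 15 comparisons (Cleo HL+HS against Cleo CT) the same replicate numbers deviated together, by correlation of the libraries' deviations from their group means over 12156 genes. Gene order came from RefSeq's table of assembly DVS_A1.0.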

Additional observations from a re-analysis of the deposited data

Results flagged for a closer look

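The following transporter genes were picked out because the difference between genotypes in the response to a stress (Cleo log2 fold change minus Car log2 fold change) was itself called by edgeR's quasi-likelihood interaction test, with an adjusted p below 0.05 over all genes. They are the 3 largest differences in each direction for each stress among genes whose mean log2 CPM was 1 or more, and no cause was tested for any of them.

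NPF3.1-like LOC102609680 was picked out in all 7 stresses, always with the larger rise in Cleo. The difference was 2.61 under WS, 3.76 under HL, 4.66 under HS, 1.85 under WS+HL, 3.61 under WS+HS, 6.82 under HL+HS and 5.84 under WS+HL+HS. Its level in Cleo CT, 0.429 CPM, is the base of each of these. The neighbouring NPF3.1-like LOC102609991 differed by 2.24 under WS and 1.03 under HL. The third gene of that name, LOC102627768, differed the other way, by -1.38 under WS and -2.55 under WS+HL, since it fell further in Cleo.

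NPF2.11-like LOC102610070 differed by 2.97 under WS, 3.22 under HS, 2.86 under WS+HL and 4.17 under HL+HS. NPF8.1-like LOC102609697 differed by 2.32 under WS+HL, 4.65 under HL+HS and 5.22 under WS+HL+HS, having risen in Cleo and fallen in Car each time. NPF6.2-like LOC102617586 did the same under WS+HL+HS, with a difference of 3.23. NPF1.2-like LOC102626689 differed by 4.46 under HS, where it fell further in Car, and by -1.35 under WS+HL+HS, where it fell further in Cleo. NPF5.9 (LOC102616258) and NPF4.3-like LOC102620976 fell further in Car under WS+HS, with differences of 1.85 and 1.84.

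Among the negative differences, NPF1.2 LOC102615319 differed by -0.94 under HL, -1.07 under HS and -2.39 under HL+HS. NPF4.6 (LOC102607539) differed by -0.94 under HS and -1.34 under HL+HS, rising further in Car. NPF6.3 (LOC102617282) differed by -1.17 under WS+HS and -1.52 under WS+HL+HS. NPF6.1 (LOC102623482) differed by -1.46 under HL+HS, NPF5.1 (LOC102626040) by -1.58 under WS+HL+HS and NPF4.5-like LOC102619408 by -1.15 under WS+HL. OPT3 (LOC102612606) differed by -1.04 under WS, and OPT7 (LOC102614627) by -1.22 under HL, where it rose in Car and fell in Cleo.

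The smallest of the listed differences were in NPF8.3 (LOC102611745), -0.47 under WS, NPF5.10-like LOC102615123, -0.47 under WS+HS, and NPF5.10 LOC102615398, -0.76 under HS. NPF6.4 (LOC102619172) differed by 0.58 under HL. A pair of calls rests on single libraries. NPF8.1-like LOC102613675 differed by -0.99 under WS+HL, and by -0.74 under WS+HS, where leaving out Car CT replicate 1 or 2, any Cleo CT library, or replicate 2 or 3 of either WS+HS group ended the call (adjusted p from 0.0577 to 0.116). OPT1-like LOC102619491 differed by -1.16 under HL, a call that ended without Car CT replicate 2, Car HL replicate 2 or Cleo HL replicate 2 or 3 (adjusted p from 0.0527 to 0.0748).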

How the results depend on the processing

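The number of transporter genes called stayed within 1.5 times the reported count in all comparisons and alternatives but Car HL against Car CT. There it was 17, 5 with only the compared libraries in the fit (1 higher, 4 lower), and 11 to 23 when single libraries were left out, the lowest without Car HL replicate 2. The alternatives were DESeq2, its size factors in edgeR, no low-count filter, the replicate number as a block, the column mark as a term, unmarked libraries alone, and leaving out each library. Car HS has no unmarked library. With marked libraries alone, an alternative chosen after seeing the data, Car HS against Car CT gave 42 in place of 34.

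For single genes, 11908 of 12364 values kept their direction and side of the threshold, 455 lost the call and 1 turned, NRT2.7 (LOC102627329) between Cleo CT and Car CT, at 0.10 (adjusted p = 0.520) with unmarked libraries alone. The cause was not tested. DESeq2's size factors moved the median of all genes by at most 0.06.

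Same-numbered libraries deviated together (r above 0.1 in all 3 pairs) in 1 of 15 comparisons, Cleo HL+HS against Cleo CT, with r from -0.638 to 0.607 over all pairs. With the replicate number as a block, that comparison gave 37 calls, as without it. No count moved by over 1.5 times with the block, and 5 single-gene calls were lost.

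Promoter and protein motifs, planned for genes that move together, were not run because no sequences were used here. Genes under about 3 counts per group allow only bounds.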

Other observations

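Some transporters with few reads, chosen after their values were seen, had no or almost no counts in some groups and more in others. NPF1.1-like LOC102626982 was at 0.361 ± 0.14 CPM (SD, n = 3) in Car CT and without a count in Car WS+HL+HS, while in Cleo it was at 0.33 ± 0.191 under WS+HL+HS and at 0.0182 ± 0.0315 under CT. It lies next to NPF1.2-like LOC102626689 on DVS_A1.0, which fell in both genotypes under that stress. NPF4.2-like LOC102618639 was at 2.17 ± 0.82 CPM in Car CT and 0.0993 ± 0.121 in Car HL+HS, against 0.364 ± 0.207 and 1.26 ± 0.137 in Cleo. NPF5.5 LOC102611396 had no count in Cleo CT and 63 counts in the Cleo WS+HS libraries, which is at least 20.7-fold higher against a floor of 3 counts over the group. NPF4.5-like LOC102617813 was at 0.0545 ± 0.0536 in Cleo CT and 0.598 ± 0.113 in Cleo WS+HL+HS.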
